A study of Mus musculus with 6 samples.

Results

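The axon guidance genes described here are the semaphorins, plexins, ephrins, Eph receptors, Slits, Robos and netrins of the mouse. They were taken by symbol from the protein-coding genes of RefSeq on mm10 (the GRCm38.p6 table), chromosomes X and Y left out, which gave 59 of 20661 autosomal protein-coding genes. They comprise 20 semaphorins, 7 plexins, 7 ephrins, 14 Eph receptors, 3 Slits, 4 Robos and 4 netrins. A binding peak was assigned to a gene when its summit lay inside the gene or within 50 kb of either end. The rule uses symbols and positions, not peak values, but the genes were proposed with earlier results of these data known.

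Chromatin immunoprecipitation followed by sequencing (ChIP-seq) had been carried out on limb and on molar tooth germ of wild-type CD1 mice at E13.5, a stage counted in embryonic days. In each tissue 1 library was made with an antibody to phosphorylated Smad1/5 (pSmad1/5) and 1 with an antibody to Smad4, after fixation of the tissue in formaldehyde, and 2 input samples completed the set. No treatment or mutant was involved, so limb served as the comparison tissue for molar. The sources used here do not state how many embryos were pooled in a library. Both tissues hold several cell types, and the labels were not checked against marker genes, because a peak list carries no expression values.

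Semaphorins are secreted or membrane-bound ligands whose main receptors are the plexins, with neuropilins as co-receptors for most secreted members. Ephrins are membrane-anchored ligands of the Eph receptor tyrosine kinases, Slits are secreted ligands of the Robo receptors, and netrins are secreted proteins related to laminins. These systems steer axons and also migrating cells, vessels and tissue boundaries, and semaphorin 3A is known for its part in the timing of tooth innervation. pSmad1/5 is the activated form of the Smads of the bone morphogenetic protein (BMP) pathway, and Smad4 is the partner they share with the TGF-beta branch.

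The 4 deposited lists held 23389 pSmad1/5 and 29756 Smad4 peaks in limb, and 35476 and 34561 in molar, with a median length of 54 to 63 bp. Each peak carries an enrichment score and a p-value from the authors' peak caller, which are used below only to rank or filter peaks within a list. Read depth is unknown, and with 1 library per group no difference below has a replicate check or a p-value. Intervals are exact 95% intervals that cover counting error over peaks only. The lowest score listed differed between chromosomes: it was 3 on all autosomes in both limb lists, 2 on 7 and 3 on 12 autosomes in the molar pSmad1/5 list, and 3 on 13 and 4 on 6 in the molar Smad4 list. Differences between tissues are therefore also given for peaks scoring at least 4 and for equal numbers of top-scoring peaks per chromosome in both tissues, called equal numbers below.

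All 59 guidance genes had a peak in at least 1 list (89.7% of all autosomal protein-coding genes), and each in at least 2. Peaks lay within 50 kb of 51 of the 59 genes in the limb pSmad1/5 list (69% of all autosomal protein-coding genes), 54 in the limb Smad4 list (72.3%), 55 in the molar pSmad1/5 list (76.3%) and 51 in the molar Smad4 list (68.2%). In all 4 lists at once a peak was found at 40 genes, against 44.9% of all genes, at 13 genes in 3 lists and at 6 genes in 2. The guidance genes were also longer than the average gene, with a median length of 40.5 kb (4.64 to 1555 kb) against 17.5 kb, so that their windows had more room for peaks. Over the 4 lists a guidance gene had a median of 19 peaks (2 to 49), against 9 for all genes.

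The share of genes with a peak was sensitive to the score. With peaks scoring at least 4, 33 genes kept a limb pSmad1/5 peak (36.1% of all genes), 45 a limb Smad4 peak (45.7%), 28 a molar pSmad1/5 peak (29.2%) and 40 a molar Smad4 peak (41%). At equal numbers the 4 counts were 48 (66.2%), 51 (62.5%), 53 (68.8%) and 47 (62.1%). Within 10 kb of the gene, they were 46 (48.6%), 50 (53.4%), 55 (55.4%) and 36 (44.1%). In each of these settings the share of guidance genes of all lengths was above the share of all genes. Within 50 kb and without a score limit, guidance genes under 150 kb were also above all genes of their length. Of the 21 guidance genes of 150 kb and longer, 81.0%, 85.7%, 90.5% and 85.7% had a peak in the 4 lists. Of all genes of that length it was 83.2%, 85.6%, 92.1% and 89.6%, so the long guidance genes were not above them. The plot of peaks per gene gives all 59 genes. Where 4 counts of a gene or family follow each other below, limb comes before molar and, within a tissue, pSmad1/5 before Smad4.

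**Figure D1:**
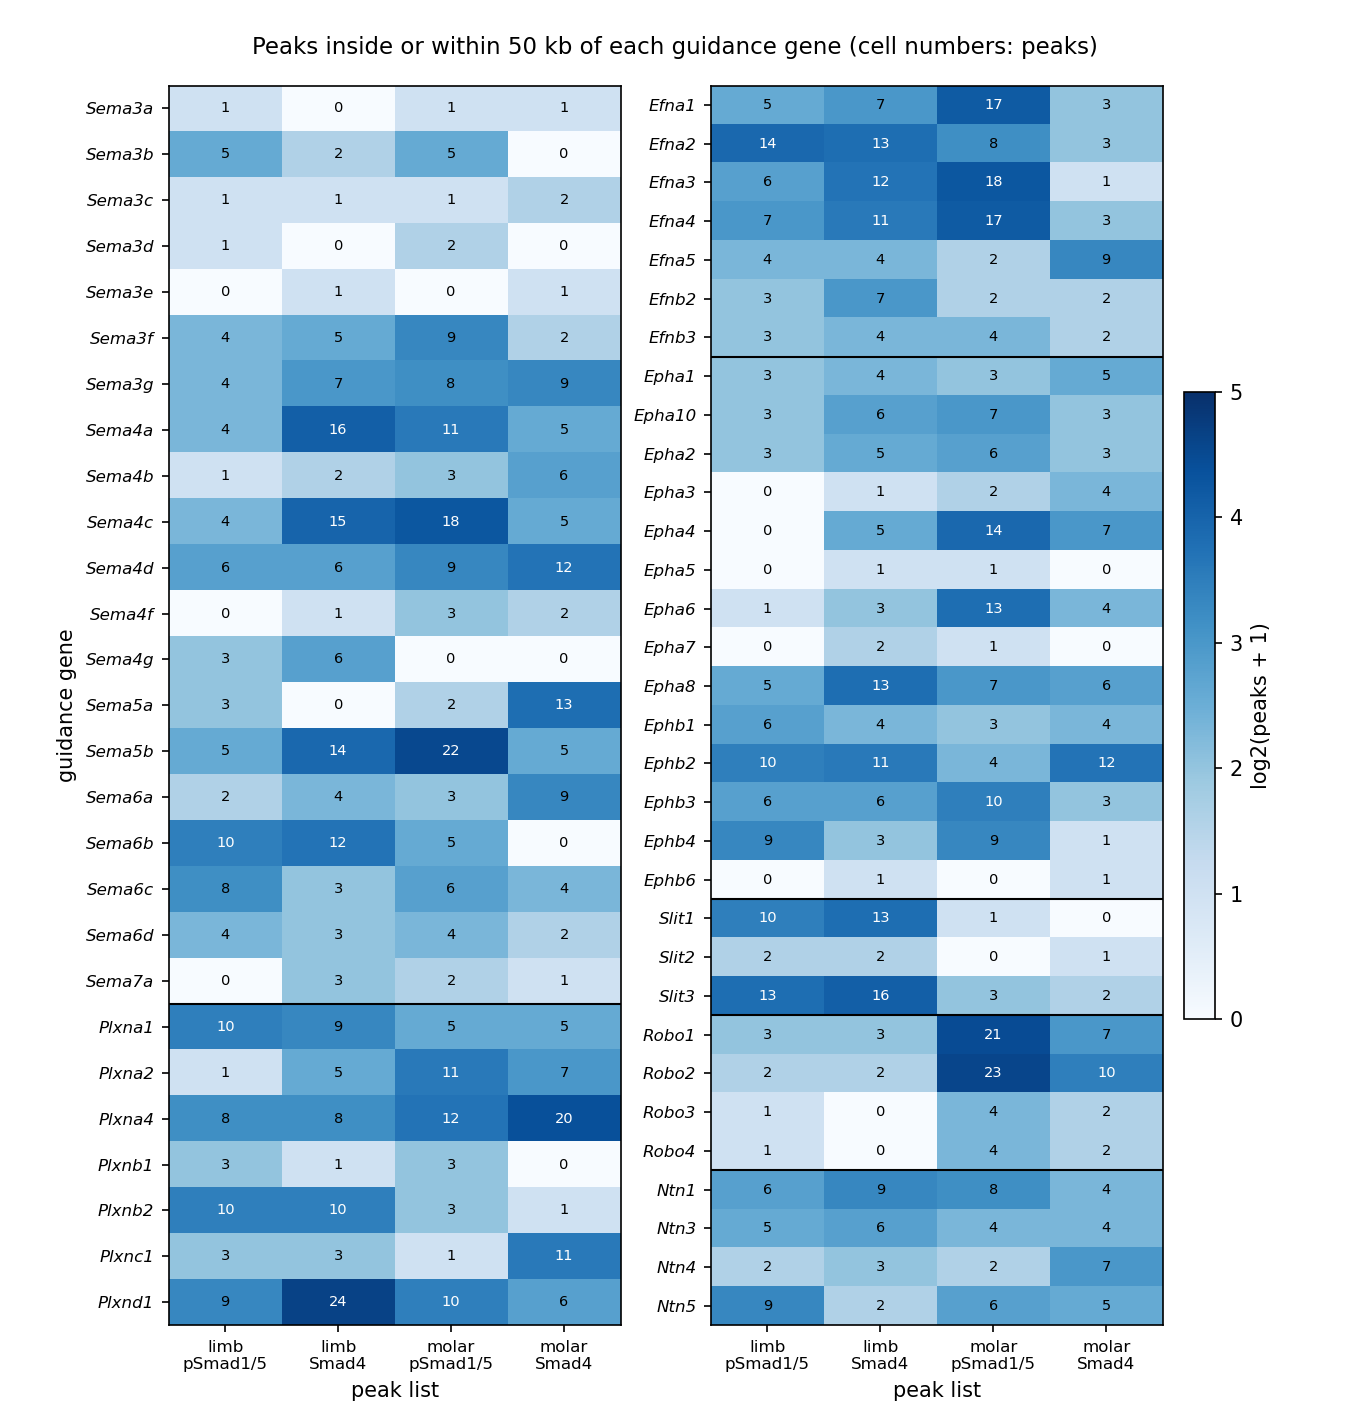
Number of peaks inside or within 50 kb of each of the 59 guidance genes (rows, grouped by family) in the 4 peak lists (columns); colour is log2(peaks + 1) and the numbers are peaks. Counts run from 0 to 24, and the 3 Slits have more peaks in both limb lists than in both molar lists, while the 4 Robos have more in both molar lists. In these full lists all genes on the chromosomes of each of these families have the same tissue order as that family.

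Counted once each, 243 pSmad1/5 and 326 Smad4 peaks of limb, and 350 pSmad1/5 and 245 Smad4 peaks of molar, lay in the 16.3 Mb covered by the guidance gene windows. The density was 14.9 peaks per Mb (13.1 to 16.9) for limb pSmad1/5, against 12.6 in the windows of all genes on the same chromosomes in the same proportions. The limb Smad4 density was 19.997 (17.9 to 22.3) against 16.8. In molar it was 21.5 (19.3 to 23.8) against 19.9 for pSmad1/5 and 15.0 (13.2 to 17.0) against 12.7 for Smad4. The ratio to the same chromosomes thus lay between 1.08 and 1.19 in the 4 lists. It was 1.48, 1.24, 1.36 and 1.31 with peaks scoring at least 4, in the same order of lists. Higher ratios at a score of at least 4 were found in each list, although the median score at guidance genes was close to that in all gene windows. This median was 3.51 against 3.49 for limb pSmad1/5 and 3.55 against 3.57 for limb Smad4. For molar pSmad1/5 it was 3.04 against 3.07, and for molar Smad4 3.52 against 3.47.

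Gene length divided the guidance genes sharply. The 27 genes under 30 kb had 42.8 limb pSmad1/5 peaks per Mb (35.6 to 51.1), against 16.4 for all genes of that length. Their limb Smad4 density was 53.6 (45.5 to 62.8) against 22.5, their molar pSmad1/5 density 54.6 (46.4 to 63.9) against 20.9 and their molar Smad4 density 24.0 (18.7 to 30.4) against 14.6. These short genes include the ephrins Efna1 to Efna4 and the semaphorins Sema4a, Sema4c and Sema6b, and peaks were denser at them than at short genes in general in all 4 lists.

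The 11 guidance genes of 30 to 150 kb showed the same order, with 24.7 limb pSmad1/5 peaks per Mb against 15.8 for all genes of that length. The other 3 densities were 45.0 against 21.3 (limb Smad4), 37.7 against 21.2 (molar pSmad1/5) and 30.004 against 16.3 (molar Smad4). The 21 guidance genes of 150 kb and longer went the other way. In limb their density was 6.07 (4.72 to 7.68) against 8.19 for pSmad1/5 and 6.95 (5.50 to 8.66) against 10.5 for Smad4. In molar it was 10.1 (8.35 to 12.1) against 13.4 for pSmad1/5 and 10.03 (8.27 to 12.0) against 14.4 for Smad4. All 4 intervals end below the value of all long genes, and the order was the same with peaks scoring at least 4 and with equal numbers. Robo1, Robo2, Slit2, Slit3, Plxna4, Epha3, Epha5, Epha6 and Sema3a belong to this class.

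**Figure D2:**
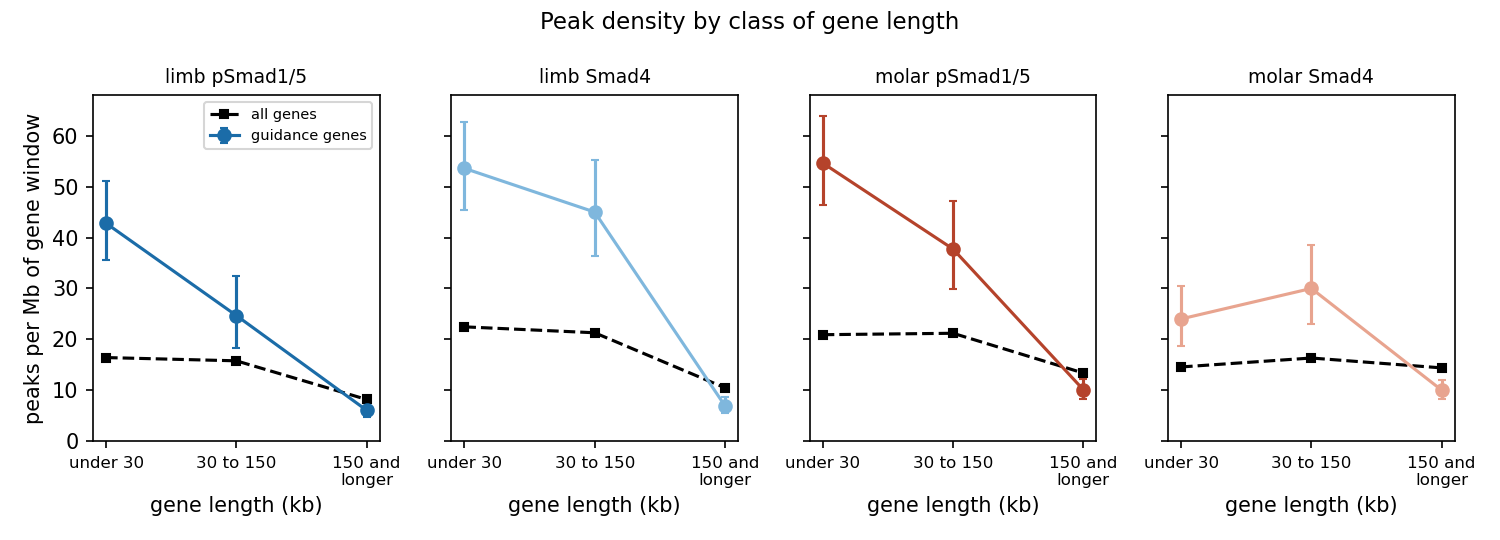
Peaks per Mb of gene window (vertical axis) for guidance genes (coloured points, exact 95% Poisson intervals that cover counting error only) and for all autosomal protein-coding genes (black squares, dashed) in 3 classes of gene length, 1 panel per peak list. In each list guidance genes under 150 kb lie above all genes of their class, and those of 150 kb and longer lie below.

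Short guidance genes also stood among more neighbours. The median number of other protein-coding genes in the window was 5 for guidance genes under 30 kb, against 3 for all genes of that length, and 0 against 1 at 150 kb and longer. Across the 59 guidance genes, peaks per Mb and neighbouring genes per Mb had a Spearman rho of 0.72 in the limb pSmad1/5 list, 0.63 in limb Smad4, 0.60 in molar pSmad1/5 and 0.24 in molar Smad4. Over all genes the same values were 0.32, 0.32, 0.22 and 0.05. These correlations are across genes, which share windows and are not independent replicates, and the part of neighbouring genes in the densities was not tested. Both quantities are also divided by the length of the same window, which by itself can raise rho. Of the peaks in the guidance windows, the nearest protein-coding gene was a guidance gene for 138 (56.8%) in limb pSmad1/5, 209 (64.1%) in limb Smad4, 243 (69.4%) in molar pSmad1/5 and 176 (71.8%) in molar Smad4.

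Peaks at annotated gene ends were counted next. In limb a summit lay within 1 kb of an annotated end at 15 of 59 genes for pSmad1/5, which is 25.4% (15.0 to 38.4) against 15.7% of all genes, and at 21 for Smad4, 35.6% (23.6 to 49.1) against 22.5%. In molar this held for 20 genes with pSmad1/5, 33.9% (22.1 to 47.4) against 21.4%, and for 6 with Smad4, 10.2% (3.82 to 20.8) against 7.53%. The intervals of limb pSmad1/5 and of molar Smad4 thus span the share of all genes. At least 1 list had such a peak at 39 genes (45.8%) and at least 2 lists at 19 (17.2%). Transcript starts could be told from 3′ ends for the 51 guidance genes with an entry in RefSeq's promoter table. Within 1 kb of a transcript start, a limb summit lay at 16 of these 51 genes for pSmad1/5 (13.8% of all genes with an entry) and at 20 for Smad4 (20.8%). A molar summit lay there at 18 genes for pSmad1/5 (20.4%) and at 3 for Smad4 (5%). The molar Smad4 list was thus close to its background at starts, and the other 3 lists were above theirs.

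**Figure D3:**
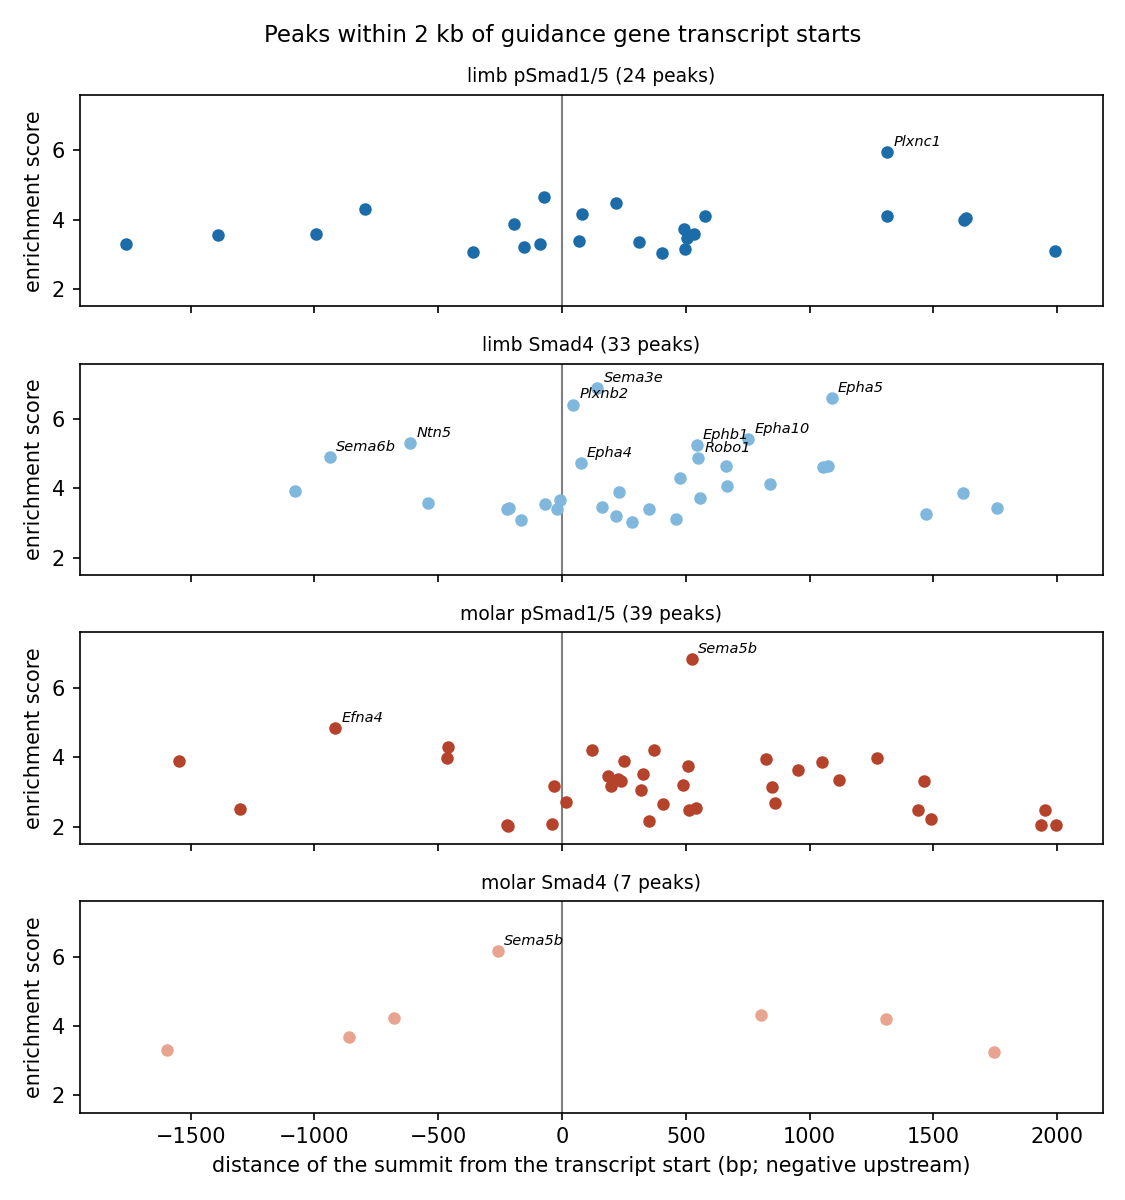
Enrichment score (vertical axis, the authors' value) of each peak within 2 kb of a transcript start of a guidance gene against the distance of its summit from that start in bp (horizontal axis, negative upstream), 1 panel per list; genes are named from a score of 4.7. The panels hold 24, 33, 39 and 7 peaks, and the highest-scoring ones of both molar lists are at Sema5b.

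Peaks covered part of the 300 bp promoter (250 bp before to 50 bp after a start) of 6 of the 51 genes in limb with pSmad1/5 (5.2%) and of 6 with Smad4 (8.53%). In molar they covered 4 with pSmad1/5 (8.4%) and 1 with Smad4 (1.17%). In all, 19 peaks covered part of 15 promoters of 14 genes. The promoters below are the ones covered by 2 peaks, those holding the highest-scoring promoter peak of a list, and that of Epha3, whose limb Smad4 summit sits at the start. Each runs 5′ to 3′ on the strand of the gene, comes from RefSeq on GRCm38.p6, and has in capitals the bases under a peak of any list.
Efna2, chr10:80179232-80179531, plus strand, limb pSmad1/5 and limb Smad4: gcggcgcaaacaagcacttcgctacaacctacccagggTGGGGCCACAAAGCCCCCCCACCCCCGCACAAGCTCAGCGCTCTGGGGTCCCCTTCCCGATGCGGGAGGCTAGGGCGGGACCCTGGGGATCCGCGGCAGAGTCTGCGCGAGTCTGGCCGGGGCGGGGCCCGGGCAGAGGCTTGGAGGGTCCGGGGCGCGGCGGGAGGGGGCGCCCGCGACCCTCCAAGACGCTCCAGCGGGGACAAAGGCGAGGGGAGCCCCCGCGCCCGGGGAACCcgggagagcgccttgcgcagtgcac
Efna3, chr3:89322890-89323189, minus strand, limb Smad4 and molar pSmad1/5: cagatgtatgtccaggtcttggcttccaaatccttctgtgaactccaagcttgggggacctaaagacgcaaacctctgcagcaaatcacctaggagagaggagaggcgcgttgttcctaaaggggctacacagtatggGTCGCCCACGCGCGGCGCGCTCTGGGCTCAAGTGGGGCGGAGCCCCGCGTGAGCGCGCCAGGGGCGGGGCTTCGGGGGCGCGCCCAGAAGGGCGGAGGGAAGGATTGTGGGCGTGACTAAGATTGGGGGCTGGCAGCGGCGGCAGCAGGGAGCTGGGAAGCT
Efnb2, chr8:8661193-8661492, minus strand, 2 limb Smad4 peaks: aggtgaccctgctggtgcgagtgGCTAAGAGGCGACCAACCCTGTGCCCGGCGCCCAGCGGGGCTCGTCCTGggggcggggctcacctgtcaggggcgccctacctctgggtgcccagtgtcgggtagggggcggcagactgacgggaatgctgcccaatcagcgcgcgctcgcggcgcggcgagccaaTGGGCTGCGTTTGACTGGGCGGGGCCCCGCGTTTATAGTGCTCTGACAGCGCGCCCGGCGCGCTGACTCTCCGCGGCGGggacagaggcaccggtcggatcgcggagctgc
Robo2, chr16:74411776-74412075, minus strand, limb pSmad1/5 and molar pSmad1/5: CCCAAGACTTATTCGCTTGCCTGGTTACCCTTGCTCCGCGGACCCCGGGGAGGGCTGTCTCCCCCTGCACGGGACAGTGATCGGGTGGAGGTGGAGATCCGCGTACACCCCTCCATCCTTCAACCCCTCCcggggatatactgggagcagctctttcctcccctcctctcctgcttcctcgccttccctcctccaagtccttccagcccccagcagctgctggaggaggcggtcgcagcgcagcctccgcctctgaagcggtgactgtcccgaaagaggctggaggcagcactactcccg
Plxnb2, chr15:89180739-89181038, minus strand, limb Smad4: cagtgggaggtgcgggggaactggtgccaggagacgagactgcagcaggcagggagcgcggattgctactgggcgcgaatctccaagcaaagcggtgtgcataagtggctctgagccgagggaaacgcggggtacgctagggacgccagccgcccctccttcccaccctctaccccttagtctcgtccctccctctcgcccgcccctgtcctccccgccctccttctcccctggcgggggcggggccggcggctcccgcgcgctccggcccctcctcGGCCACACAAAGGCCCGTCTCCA
Sema6c, chr3:95164089-95164388, plus strand, molar pSmad1/5: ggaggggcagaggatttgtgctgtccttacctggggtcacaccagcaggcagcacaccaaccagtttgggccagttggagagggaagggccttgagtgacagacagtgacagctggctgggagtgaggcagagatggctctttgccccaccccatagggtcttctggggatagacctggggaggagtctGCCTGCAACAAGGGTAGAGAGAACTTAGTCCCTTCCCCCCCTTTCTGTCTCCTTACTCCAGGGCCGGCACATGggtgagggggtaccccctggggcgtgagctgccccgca
Sema5b, chr16:35541112-35541411, plus strand, molar Smad4: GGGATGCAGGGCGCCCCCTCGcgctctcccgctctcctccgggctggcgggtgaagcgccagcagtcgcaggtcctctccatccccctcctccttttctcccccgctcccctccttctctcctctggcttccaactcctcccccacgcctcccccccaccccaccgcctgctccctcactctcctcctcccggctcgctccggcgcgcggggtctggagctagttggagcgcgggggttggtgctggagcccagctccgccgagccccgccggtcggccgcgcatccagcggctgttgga
Epha3, chr16:63864126-63864425, minus strand, limb Smad4: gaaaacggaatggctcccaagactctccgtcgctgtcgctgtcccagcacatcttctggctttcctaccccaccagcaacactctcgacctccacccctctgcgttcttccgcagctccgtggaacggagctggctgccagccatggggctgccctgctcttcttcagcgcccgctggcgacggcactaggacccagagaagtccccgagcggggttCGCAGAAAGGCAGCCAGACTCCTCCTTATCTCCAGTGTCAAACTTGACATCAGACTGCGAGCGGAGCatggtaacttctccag

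The covered promoters were rich in G and C. Their median G and C content was 69.7% over 15 promoters, against 63% over the 52 guidance promoters without a peak. Over all promoters of the table the same pair was 65.7% and 54.7%. The median number of CpG dinucleotides was 25 with a peak and 16 without, against 26 and 10 over all promoters. The letters GGCGCC, searched on both strands as a core of GC-rich Smad sites, occurred in 6 of the 15 covered guidance promoters (40%) and in 8 of the other 52 (15.4%). Over all promoters they occurred in 27.5% of covered and 13.3% of other promoters, and in 15.8% of all 300 bp promoters. Here and for the letters below, matches were counted over the whole promoter, not only under the peaks. Of the 6 covered guidance promoters with GGCGCC, those of Efna2, Efnb2 and Sema5b had a match under a peak. Those of Efna3, Ntn3 and Plxna2 had it outside the peaks only. CAGAC, the Smad-binding element core, was found on either strand in 60% of covered and 63.5% of other guidance promoters, against 48.4% of all promoters. The palindrome GTCTAGAC had no match in a guidance promoter and matched 0.239% of all promoters. A match is a description of letters in this window only.

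Among the ligands, the 7 ephrins had the densest peaks of the 7 families in 3 lists when no score limit was set. Of peaks scoring at least 4, netrins had more per Mb than ephrins in limb pSmad1/5 (14.3 against 11.03) and molar pSmad1/5 (11.5 against 5.52), and at equal numbers in molar pSmad1/5 (28.6 against 26.5). The ephrins held 35 limb pSmad1/5 peaks or 38.6 per Mb (26.9 to 53.7), against 15.5 for all genes on the same chromosomes. Their limb Smad4 density was 48.6 (35.3 to 65.2) against 19.0, molar pSmad1/5 44.1 (31.5 to 60.1) against 15.1, and molar Smad4 23.2 (14.3 to 35.4) against 14.3. Every ephrin had a peak in all 4 lists (44.9% of all genes). Efna1, Efna3 and Efna4, which encode GPI-anchored ligands, lie next to each other on chromosome 3 and share peaks: 33 peaks fell in the windows of both Efna3 and Efna4, 18 in those of Efna1 and Efna3, and 14 in those of Efna1 and Efna4. Their counts are therefore not independent. Within 10 kb the 4 counts were 0, 2, 3 and 0 at Efna1, and 3, 6, 1 and 0 at Efna2. They were 1, 1, 8 and 0 at Efna3, 0, 2, 4 and 0 at Efna4, and 4, 3, 2 and 7 at Efna5. Most limb pSmad1/5 peaks in the windows of Efna1, Efna2 and Efna4 were nearest to other genes, such as Thbs3, Cirbp and Dcst2.

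Efna3 had 6 pSmad1/5 and 12 Smad4 peaks in limb, and 18 and 1 in molar. Its promoter, printed above, was covered by a limb Smad4 peak (score 3.54, summit 67 bp upstream of the start) and a molar pSmad1/5 peak (score 2.08, summit 40 bp upstream), which overlapped by 107 bp. Another Efna3 promoter, whose start lies downstream of the first, was covered by a molar pSmad1/5 peak of score 2.03. Both molar peaks score under 3, the level at which the limb lists end. Efna4 had 7, 11, 17 and 3 peaks in the same order of lists, with a limb Smad4 summit 218 bp and a molar pSmad1/5 summit 17 bp downstream of its start. Efna1 had 5, 7, 17 and 3, and its nearest limb Smad4 summit lay 543 bp upstream of the start.

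Efna2, another GPI-anchored ligand, had 14 pSmad1/5 and 13 Smad4 peaks in limb, and 8 and 3 in molar. In limb both antibodies had a peak on its promoter: the pSmad1/5 peak (score 4.67, chr10:80179370-80179438) lay wholly inside the Smad4 peak (score 3.08, chr10:80179270-80179506), with summits 74 and 164 bp upstream of the start. A second pair of limb peaks overlapped by 40 bp beyond the 3′ end, 480 bp from it. In molar the nearest peak to an end of Efna2 was 5221 bp away for pSmad1/5 and 12473 bp for Smad4, so the shared promoter site was a limb one in these lists.

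Efnb2 encodes a transmembrane ephrin that marks arteries. It had 3 pSmad1/5 and 7 Smad4 peaks in limb, and 2 and 2 in molar. In limb a pSmad1/5 peak (score 4.12) and a Smad4 peak (score 3.72) overlapped by 23 bp in the gene, 577 bp downstream of the start, and 2 further Smad4 peaks covered the promoter with summits 20 and 221 bp upstream. In molar the summit nearest to an end of the gene was 19388 bp away. Efnb3, also transmembrane, had 3, 4, 4 and 2 peaks, and its molar pSmad1/5 peak at chr11:69605393-69605442 overlapped a limb Smad4 peak by 21 bp, 44287 bp from the gene and nearest to Atp1b2. Efna5 had 4, 4, 2 and 9 peaks, and was the ephrin with most molar Smad4 peaks.

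**Figure D4:**
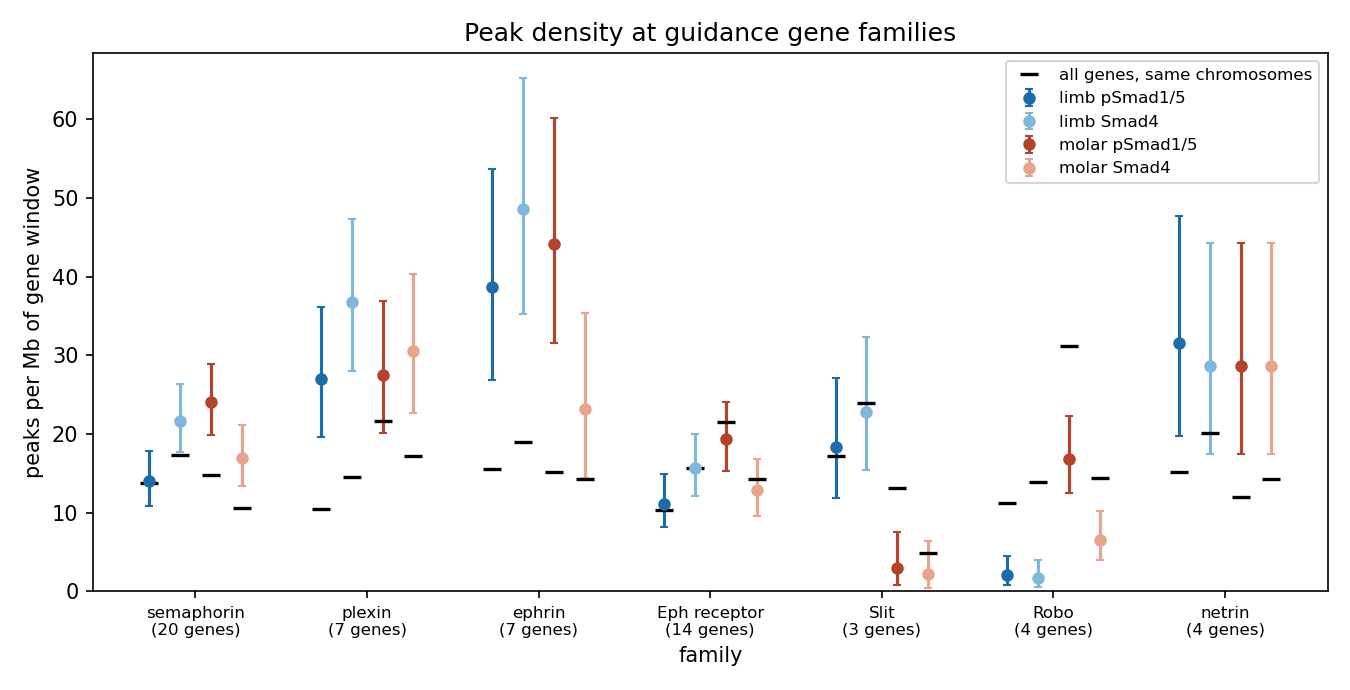
Peaks per Mb of gene window (vertical axis) for the 7 guidance gene families (horizontal axis) in the 4 peak lists (colours), with exact 95% Poisson intervals that cover counting error only; black bars give all genes on the same chromosomes. Semaphorins, plexins, ephrins and netrins lie above the bars in all 4 lists, Robos below them in all 4, and Slits below them in both molar lists.

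The 20 semaphorins held 65 pSmad1/5 and 101 Smad4 peaks in limb, and 112 and 79 in molar. The 4 densities were 14.0 per Mb against 13.8 on the same chromosomes, 21.7 against 17.3, 24.1 against 14.8 and 17.0 against 10.5. Of the 112 molar pSmad1/5 peaks 58 scored at least 3, and at equal numbers that density was 11.8 against 10.4. Of the 20 genes 17 (69% of all genes), 17 (72.3%), 18 (76.3%) and 16 (68.2%) had a peak, and 11 had one in all 4 lists (44.9%). Semaphorins are a mixed family here: Sema5b had 46 peaks over the 4 lists and Sema4c 42, whereas Sema3a, Sema3d and Sema3e had 2 to 3 each. Sema3a, the ligand named above for tooth innervation, had 1 pSmad1/5 and 0 Smad4 peaks in limb, and 1 and 1 in molar, all more than 20 kb from any transcript start. The 1 Sema3a peak of molar Smad4 scored 4.58.

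Sema5b, a transmembrane semaphorin with thrombospondin repeats, carried the highest-scoring guidance gene peak of both molar lists. The molar pSmad1/5 peak (score 6.83, chr16:35541842-35541893) had its summit 524 bp downstream of the start. The molar Smad4 peak (score 6.16, chr16:35541076-35541132) had its summit 260 bp upstream and covered the first 21 bases of the promoter printed above. The peaks did not overlap, and their summits lay 784 bp apart. A limb Smad4 peak (score 4.66) lay at the same start, 663 bp downstream, while the nearest limb pSmad1/5 peak to an end of Sema5b (score 4.51) was 1003 bp from its 3′ end and overlapped a molar pSmad1/5 peak by 12 bp. Sema5b had 5 pSmad1/5 and 14 Smad4 peaks in limb, and 22 and 5 in molar. At a score of at least 4 these were 3, 4, 5 and 1, and with equal numbers 5, 14, 9 and 4. The excess of pSmad1/5 peaks in molar was smaller in both settings.

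Sema5a, its close relative, had 3 pSmad1/5 and 0 Smad4 peaks in limb, and 2 and 13 in molar. With equal numbers the Smad4 difference remained at 0 against 13, and with peaks scoring at least 4 it was 0 against 2. The nearest of the molar Smad4 peaks was 1743 bp downstream of the start. In limb a pSmad1/5 peak (score 4.16) covered the last bases of the Sema5a promoter, with its summit 79 bp downstream of the start.

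The membrane-bound class 4 semaphorins had several of the densest windows. Sema4c had 4 pSmad1/5 and 15 Smad4 peaks in limb, and 18 and 5 in molar. It lies on chromosome 1, where the molar pSmad1/5 list reaches down to a score of 2, and at equal numbers it had 4, 15, 2 and 3. The gene nearest to its overlapping peaks was another one each time (Ankrd39, Fam178b or Cnnm3): 2 limb sites held both antibodies, 1 molar site held both, and 1 site joined molar pSmad1/5 with limb Smad4. Sema4a had 4, 16, 11 and 5 peaks and was the only guidance gene with a peak within 1 kb of an end in all 4 lists. The nearest summits of limb pSmad1/5, limb Smad4 and molar pSmad1/5 lay 176, 713 and 43 bp from the 3′ end, and that of molar Smad4 (score 4.31) lay 805 bp downstream of the start. The limb and molar pSmad1/5 peaks at the 3′ end were 3 bases apart, with summits 133 bp from each other.

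Sema4b had 1 pSmad1/5 and 2 Smad4 peaks in limb, and 3 and 6 in molar. It carried the 1 guidance site found in 3 lists: the limb Smad4 peak chr7:80208088-80208232 (score 3.37), the molar Smad4 peak chr7:80208217-80208276 (score 4.53) and the molar pSmad1/5 peak chr7:80208230-80208291 (score 3.63) overlapped inside the gene, with the limb Smad4 and molar pSmad1/5 summits 9548 and 9695 bp downstream of a transcript start. The overlaps were 16 bp for Smad4 in both tissues, 47 bp for both antibodies in molar and 3 bp for molar pSmad1/5 with limb Smad4. No limb pSmad1/5 peak took part.

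Sema4g was the guidance gene at which both antibodies had peaks within 50 kb in limb alone. It had 3 limb pSmad1/5 and 6 limb Smad4 peaks, and 0 peaks in both molar lists. The 3 limb pSmad1/5 peaks all lay outside the gene and were nearest to other genes (Mrpl43, Lzts2 and Pdzd7). At a score of at least 4 the 4 counts of Sema4g were 2, 2, 0 and 0, and with equal numbers 3, 1, 0 and 0. The gene lies on chromosome 19, with a lowest molar Smad4 score of 4. A limb Smad4 summit lay 160 bp downstream of a Sema4g start. Sema4f had 0 limb pSmad1/5 and 3 molar pSmad1/5 peaks, of which none scored 4 or more, beside 1 limb Smad4 and 2 molar Smad4 peaks.

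Class 6 semaphorins are transmembrane ligands of class A plexins. Sema6b had 10 pSmad1/5 and 12 Smad4 peaks in limb, and 5 and 0 in molar. The 10 limb pSmad1/5 peaks all lay outside the gene and were nearest to other genes, such as Plin5 and Tnfaip8l1. With equal numbers the Smad4 counts were unchanged at 12 and 0, and with peaks scoring at least 4 they were 4 and 0. A limb pair of both antibodies overlapped by 40 bp near Plin5, and pSmad1/5 peaks of both tissues overlapped by 50 bp near Hdgfl2. At the start itself a molar pSmad1/5 summit lay 185 bp downstream and a limb Smad4 summit (score 4.90) 939 bp upstream. Sema6c had 8, 3, 6 and 4 peaks, with a molar pSmad1/5 peak (score 3.16) on the promoter printed above, its summit 33 bp upstream of the start.

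Of the secreted class 3 semaphorins, Sema3a, Sema3c, Sema3d and Sema3e had 2 to 5 peaks over the 4 lists, some of them with high scores. Sema3e, a ligand that binds plexin D1 directly, had 0 pSmad1/5 peaks and 1 Smad4 peak in limb, and 0 and 1 in molar. Its limb Smad4 peak (score 6.90, chr5:14025392-14025440) was the highest-scoring peak of that list at any guidance gene, 142 bp downstream of the start. Sema3f had 4, 5, 9 and 2 peaks, and its molar pSmad1/5 peak of score 6.52 lay inside the gene, 2769 bp from an end. Sema3g had 4, 7, 8 and 9 peaks, with a molar Smad4 peak of score 6.07 lying 4122 bp downstream of the start and a limb pSmad1/5 peak of score 5.98 nearest to Nisch. Sema7a, a GPI-anchored semaphorin, had 0, 3, 2 and 1, and its limb Smad4 peak of score 6.58 was nearest to Cyp11a1.

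The 4 netrins had a peak in all 4 lists (44.9% of all genes). They held 22 limb pSmad1/5 peaks and 20 in each of the other 3 lists. The limb pSmad1/5 density was 31.5 per Mb (19.7 to 47.7), against 15.1 for all genes on the same chromosomes. In each of the other 3 lists it was 28.6 (17.5 to 44.2), against 20.1, 11.9 and 14.3. The limb Smad4 interval spans the value of all genes, and the other intervals lie above theirs. Ntn1, the ligand of Dcc, had 6, 9, 8 and 4 peaks. A limb Smad4 and a molar Smad4 peak overlapped by 48 bp at chr11:68202189-68202236, 7111 bp from Ntn1 and nearest to Stx8. Ntn5 had 9, 2, 6 and 5 peaks and an end peak in 3 lists: the limb pSmad1/5 and limb Smad4 summits (scores 4.32 and 5.31) lay 796 and 612 bp upstream of the start, and the molar Smad4 summit 688 bp from the 3′ end. This limb pSmad1/5 peak upstream of the Ntn5 start was nearest to Sec1, and the limb pSmad1/5 peak of score 5.63 to Rasip1. Most limb pSmad1/5 peaks in the Ntn5 window were nearest to other genes, such as Dbp. Ntn4 had 2, 3, 2 and 7 peaks, with a limb pSmad1/5 summit 194 bp upstream of a start and a molar Smad4 peak of score 5.71 inside the gene. Ntn3 had 5, 6, 4 and 4 peaks, with a limb pSmad1/5 summit 68 bp downstream of the start.

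The 3 Slits had most of their peaks in limb. Slit1 had 10 pSmad1/5 and 13 Smad4 peaks in limb, and 1 and 0 in molar. Slit3 had 13, 16, 3 and 2, and Slit2 had 2, 2, 0 and 1. The family held 25, 31, 4 and 3 peaks, or 18.3 (11.9 to 27.1), 22.7 (15.5 to 32.3), 2.93 (0.800 to 7.51) and 2.20 (0.454 to 6.43) per Mb. On the same chromosomes all genes had 17.2, 24.0, 13.1 and 4.84, so the interval of the molar pSmad1/5 density ends below that of other genes on these chromosomes, and the other 3 intervals span it. Against all genes of 150 kb and longer on all autosomes, which had 8.19, 10.5, 13.4 and 14.4, the limb densities of the Slits were higher and both molar densities lower. The molar Smad4 list ends at a higher score on the Slit chromosomes than on most others, so its 2 values have unlike score limits. With peaks scoring at least 4, the Slits had 2.93 Smad4 peaks per Mb in limb and 2.20 in molar, against 2.53 and 3.15. Slit2 and Slit3 belong to that length class, and Slit1 falls just short of it.

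The size of the Slit difference depended on the antibody. For pSmad1/5 it stayed with peaks scoring at least 4, at 9 limb and 0 molar peaks, and with equal numbers, at 19 and 4. For Smad4 it was 4 and 3 in both settings, and the molar Smad4 list ends at a score of 4 on all 3 of their chromosomes (5, 11 and 19), against 3 in limb. The highest-scoring limb pSmad1/5 peak of any guidance window (score 6.67, chr19:41773204-41773264) overlapped a limb Smad4 peak by 30 bp, 25962 bp from Slit1 and nearest to Arhgap19. A second limb pair overlapped by 15 bp inside Slit1, and another limb pSmad1/5 peak inside the gene scored 5.56. In Slit3 a limb pair overlapped by 14 bp inside the gene, and a limb pSmad1/5 summit lay 503 bp downstream of the start.

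Among the receptors, the Robos had the opposite tissue order to their ligands in the full lists. All genes on the chromosomes of each family had the same order as that family there. For Smad4 on the Robo chromosomes the tissues were close, at 13.8 in limb and 14.3 in molar. At equal numbers, all genes on the Robo chromosomes had 11.3 limb and 10.4 molar pSmad1/5 peaks per Mb, and 13.7 and 11.3 Smad4 peaks. Robo1 had 3 pSmad1/5 and 3 Smad4 peaks in limb, and 21 and 7 in molar. Robo2 had 2, 2, 23 and 10. Robo3, a receptor of commissural axons, and Robo4, an endothelial receptor, lie next to each other on chromosome 9, and each had 1, 0, 4 and 2, with 6 peaks in common. The family held 6, 5, 49 and 19 peaks, or 2.06 (0.757 to 4.49), 1.72 (0.558 to 4.01), 16.9 (12.5 to 22.3) and 6.54 (3.94 to 10.2) per Mb. All genes on the same chromosomes had 11.3, 13.8, 31.2 and 14.3, and the Robo intervals end below these values in each list. Robo1 and Robo2, which make up most of these windows, are very long genes. Against all genes of 150 kb and longer on all autosomes, at 8.19, 10.5, 13.4 and 14.4, the Robo intervals end below in both limb lists and for molar Smad4, and span the value for molar pSmad1/5. The molar pSmad1/5 list reaches a lower score on the chromosome of Robo1 and Robo2 than on most autosomes. At equal numbers that density was 3.44 at the Robos, against 6.84 at all genes of 150 kb and longer.

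Most of the molar Robo peaks had low scores. Robo1 and Robo2 lie on chromosome 16, where the molar pSmad1/5 list reaches down to a score of 2, and the family kept 10 molar pSmad1/5 peaks at a score of at least 3 and 0 at a score of at least 4. With equal numbers the pSmad1/5 counts were 6 in limb and 10 in molar, and the Smad4 counts 5 and 14. Of peaks scoring at least 4, Smad4 had 1 limb and 4 molar peaks. The pSmad1/5 excess in molar was thus smaller at equal numbers and had no peak of score 4 behind it, while the Smad4 excess was seen in all 3 settings.

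At Robo2 a limb and a molar pSmad1/5 peak met at an internal transcript start, with 0 bases between them and summits 64 bp apart. The limb peak (score 3.22, chr16:74411946-74411994) and the molar peak (score 2.02, chr16:74411995-74412088) together cover the capital stretch of the Robo2 promoter above, with summits 155 and 219 bp upstream. By the rule of overlap they count as separate sites. At Robo1 a limb pair of both antibodies (scores 3.05 and 4.89) overlapped by 9 bp inside the gene, 404 bp downstream of an internal start.

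The 7 plexins had 44, 60, 45 and 50 peaks in the 4 lists. The densities were 26.9 per Mb (19.6 to 36.1) against 10.5 for all genes on the same chromosomes, 36.7 (28.0 to 47.3) against 14.5, 27.5 (20.1 to 36.8) against 21.7 and 30.6 (22.7 to 40.3) against 17.2. The molar pSmad1/5 interval spans the value of all genes, and the other intervals lie above it. With peaks scoring at least 4 the densities were 6.73, 9.18, 3.67 and 3.06, against 2.18, 3.87, 1.56 and 2.90. Plxnd1, the receptor of Sema3e in vessels, had the most peaks of the 59 genes, 9 and 24 in limb for pSmad1/5 and Smad4, and 10 and 6 in molar. With equal numbers its counts were 9, 24, 5 and 4, and with peaks scoring at least 4 they were 2, 6, 2 and 0. Limb Smad4 was thus its highest count in each setting. A limb pair overlapped by 112 bp inside Plxnd1 and another by 71 bp beside Tmcc1. A molar pSmad1/5 peak (score 3.85) and a limb Smad4 peak (score 4.61) overlapped by 80 bp, 1048 bp downstream of the start.

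Plxna4 had 8, 8, 12 and 20 peaks, the highest molar Smad4 count of the 59 genes. With equal numbers it kept 15 molar Smad4 against 8 limb Smad4 peaks, and with peaks scoring at least 4 both tissues had 2. Its molar pSmad1/5 and limb Smad4 peaks (scores 2.90 and 5.31) overlapped by 92 bp inside the gene, 842 bp from an end. Plxnc1, the receptor of Sema7a, had 3, 3, 1 and 11 peaks. Its limb pSmad1/5 peak of score 5.95 lay 1314 bp downstream of the start, and both a limb and a molar pSmad1/5 summit lay just upstream of the start, at 88 and 462 bp.

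Plxnb2 had 10, 10, 3 and 1 peaks. Its limb Smad4 peak of score 6.42 (chr15:89180716-89180761) sat 45 bp downstream of a start, in the last 23 bases of the promoter printed above, and was the highest-scoring limb Smad4 peak on a guidance promoter. A limb pair of both antibodies overlapped by 10 bp far from the gene, nearest to Tubgcp6. Plxna1 had 10, 9, 5 and 5 peaks, and Plxna2 1, 5, 11 and 7. Plxnb1, a receptor of Sema4d, had 3, 1, 3 and 0, and Sema4d itself 6, 6, 9 and 12.

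The 14 Eph receptors had peak densities near those of other genes on their chromosomes. In limb these were 11.1 per Mb against 10.4 for pSmad1/5 and 15.7 against 15.7 for Smad4. In molar they were 19.3 against 21.5 for pSmad1/5 and 12.8 against 14.2 for Smad4. All 14 had a limb Smad4 peak (72.3% of all genes), 13 a molar pSmad1/5 (76.3%), 12 a molar Smad4 (68.2%) and 9 a limb pSmad1/5 peak (69%), the last being slightly under its background. The 5 Ephs with no limb pSmad1/5 peak were Epha3, Epha4, Epha5, Epha7 and Ephb6, a receptor without kinase activity.

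In each of those 5 genes the limb Smad4 summit nearest to a transcript start lay at most 1089 bp from it. At Epha3 it was 10 bp upstream (score 3.67), in the capital stretch of the promoter above, and this was the only limb peak of the gene. At Epha4 it was 76 bp downstream (score 4.73) and at Epha5 1089 bp downstream (score 6.60). At Epha7 it was 462 bp downstream (score 3.13) and at Ephb6 840 bp downstream (score 4.13). This subset was picked out after its values were seen, and no test was made of it.

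Epha4, a receptor known from the guidance of limb motor axons, had 0 pSmad1/5 and 5 Smad4 peaks in limb, and 14 and 7 in molar. On its chromosome, 1, the molar pSmad1/5 list reaches a score of 2. With peaks scoring at least 4 the pSmad1/5 counts were 0 in limb and 2 in molar, and with equal numbers 0 and 3, so the direction held with far fewer peaks. A molar pSmad1/5 summit (score 3.30) lay 239 bp and the limb Smad4 summit 76 bp downstream of the same start. Its molar Smad4 peak of score 5.46 lay inside the gene.

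Other Ephs carried peaks near their starts. Ephb1 had 6, 4, 3 and 4 peaks, with a limb Smad4 summit (score 5.25) 544 bp and a molar pSmad1/5 summit (score 3.52) 326 bp downstream, and a molar pSmad1/5 peak of score 5.40 deep in the gene. Epha10, a receptor without kinase activity, had 3, 6, 7 and 3, with limb pSmad1/5 and limb Smad4 summits 492 and 752 bp downstream and a molar pSmad1/5 peak of score 5.66 inside the gene. Epha2 had 3, 5, 6 and 3, with a molar pSmad1/5 summit 250 bp downstream of the start and a limb Smad4 summit 522 bp from the 3′ end. Ephb3 had 6, 6, 10 and 3, with a molar pSmad1/5 summit 508 bp downstream of the start and a limb Smad4 summit 690 bp from the 3′ end.

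Limb pairs of both antibodies overlapped at Epha1 (by 74 bp, nearest to Zyx), Epha8 (by 25 bp, inside the gene), Ephb2 (by 33 bp, inside), Ephb3 (by 58 bp, 23740 bp beyond the gene) and Ephb4 (by 40 bp, nearest to Slc12a9). Epha1 had 3, 4, 3 and 5 peaks, Epha8 5, 13, 7 and 6, and Ephb2, which lies beside Epha8 on chromosome 4, 10, 11, 4 and 12. The windows of Epha8 and Ephb2 overlap but have 0 peaks in common. Ephb4, the venous receptor of Efnb2, had 9, 3, 9 and 1, and its 1 molar Smad4 peak (score 5.34) was nearest to Zan. Epha6 had 1, 3, 13 and 4, with a molar pSmad1/5 peak of score 5.28 inside the gene.

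Overlapping peaks were most frequent between both antibodies in limb. Of the 243 limb pSmad1/5 peaks in guidance windows 18 overlapped a limb Smad4 peak by at least 1 bp, which is 7.41% (4.45 to 11.5) against 4.92% of all autosomal peaks of that list. They were 5.52% (3.30 to 8.59) of the 326 limb Smad4 peaks, against 3.82%. The lower bounds of these intervals lie under the values of all peaks. In molar 2 sites held both antibodies, 0.571% of the 350 pSmad1/5 peaks and 0.816% of the 245 Smad4 peaks, against 0.558% and 0.620% of all peaks. Between tissues 2 pSmad1/5 sites were shared, 0.823% of limb and 0.571% of molar peaks, against 1.74% and 1.12%. For Smad4 2 sites were shared, 0.613% of limb and 0.816% of molar peaks, against 0.471% and 0.435%.

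**Figure D5:**
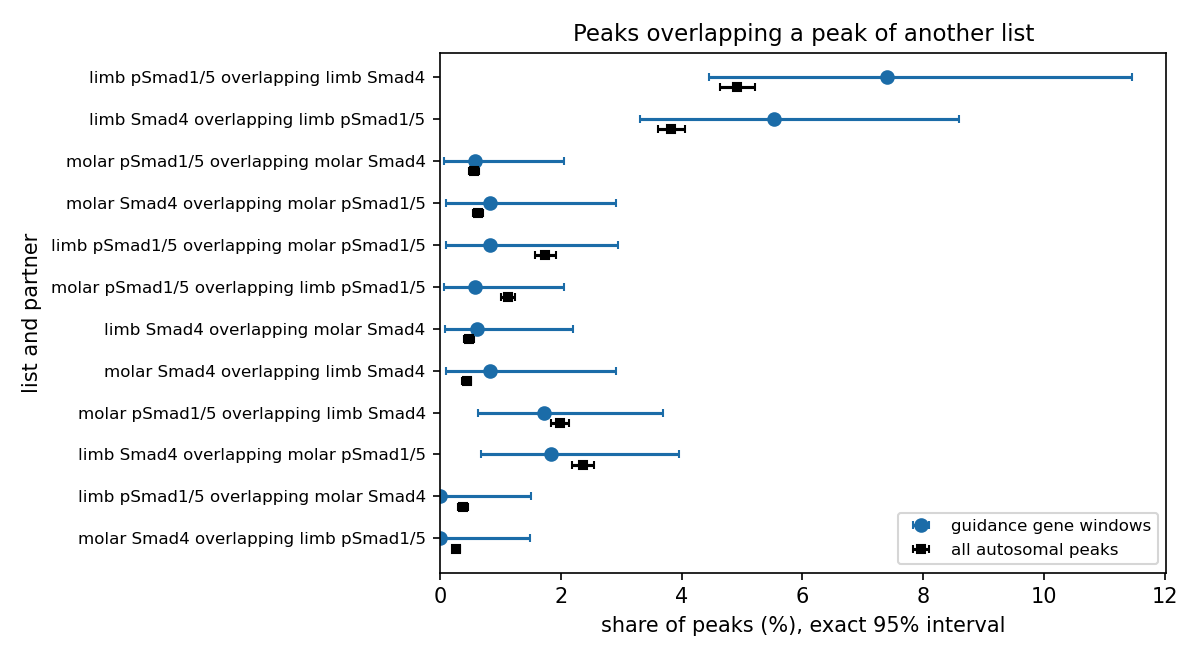
Share of peaks of 1 list that overlap a peak of another list by at least 1 bp (horizontal axis, percent, exact 95% binomial intervals that cover counting error only), for peaks in guidance gene windows (blue) and all autosomal peaks (black), for both directions of the 6 pairs of lists (vertical axis). The blue interval spans the black point in each of the 12 rows.

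Molar pSmad1/5 and limb Smad4 shared 6 sites, 1.71% of 350 and 1.84% of 326 peaks, against 1.98% and 2.36% of all peaks. Limb pSmad1/5 and molar Smad4 shared 0, which allows up to 1.51% of the 243 and 1.49% of the 245 peaks. By genes, 14 of the 59 had a limb site of both antibodies (13.1% of all genes) and 2 a molar one (1.9%). The other pairs of lists gave 2 genes for pSmad1/5 in both tissues (4.93%), 2 for Smad4 in both tissues (1.45%), 8 for molar pSmad1/5 with limb Smad4 (8.11%) and 0 for limb pSmad1/5 with molar Smad4 (0.891%). Any shared site was found at 22 genes (23.4%). Of the 30 pairs of overlapping peaks, 17 had a guidance gene as the nearest gene, 13 lay inside a guidance gene and 5 within 1 kb of its end, and the overlaps measured 3 to 112 bp.

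Most guidance genes had peaks of an antibody in both tissues or in neither. For pSmad1/5, 2 genes had a peak in limb and none in molar (7.81% of all genes), and 6 in molar and none in limb (15.1%). For Smad4, 7 genes had a peak in limb alone (16%) and 4 in molar alone (11.9%). With peaks scoring at least 4 the counts were 13 limb alone (20.1%) and 8 molar alone (13.3%) for pSmad1/5, and 15 (21.5%) and 10 (16.8%) for Smad4. With equal numbers they were 1 (10.8%) and 6 (13.3%), and 11 (14.6%) and 7 (14.1%). All 4 shares of guidance genes were below those of all genes without a score limit, and all 4 were at or somewhat above them with peaks scoring at least 4.

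Tissue counts followed the score limits of the molar lists. On the 7 chromosomes where molar pSmad1/5 reaches a score of 2, the 22 guidance genes held 225 molar and 85 limb pSmad1/5 peaks, and 18 of the genes had more in molar. The same windows held 14 molar and 20 limb peaks of score 4 or more. On the other 12 chromosomes the 37 genes held 125 molar and 158 limb peaks, with 14 genes higher in molar, 15 in limb and 8 equal. For Smad4, the 21 genes on the 6 chromosomes where the molar list ends at 4 held 27 molar and 81 limb peaks, which were 27 and 21 at a score of at least 4. The 38 genes on the other 13 chromosomes held 218 molar and 245 limb peaks. All genes followed the same order, with 27.8 molar against 9.65 limb pSmad1/5 peaks per Mb on the 7 chromosomes and 4.43 against 18.9 Smad4 peaks per Mb on the 6.

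Peak densities of the 59 genes in different lists moved together to a varying degree. Spearman's rho was 0.78 between limb pSmad1/5 and limb Smad4 and 0.51 between both antibodies in molar. Between tissues it was 0.67 for pSmad1/5 and 0.42 for Smad4. Over all genes the same values were 0.71, 0.43, 0.52 and 0.32. These values are across genes that share windows and local gene density, and they are given as a description. Both densities of a gene are divided by the same window length, which by itself can raise rho.

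Further genes of the same pathways were counted from a list of 42 co-receptors, other receptors, other ligands and intracellular effectors. Of these, 36 had a limb pSmad1/5 peak within 50 kb (69% of all genes) and 39 a limb Smad4 peak (72.3%). A molar pSmad1/5 peak lay there at 40 (76.3%) and a molar Smad4 peak at 36 (68.2%), and 31 had all 4 (44.9%). The 4 shares of the 42 genes, 85.7%, 92.9%, 95.2% and 85.7%, lie above those of all genes, as for the 59 guidance genes. Many of the 42 are long genes, and length was not matched. The shares were 75.9%, 79.2%, 83.5% and 76.6% of all genes of 30 to 150 kb. They were 83.2%, 85.6%, 92.1% and 89.6% of all genes of 150 kb and longer. A peak within 1 kb of an end was found at 11 (15.7% of all genes), 13 (22.5%), 20 (21.4%) and 3 (7.53%) of the 42, and the last of these is slightly under its background. Flrt3 was the gene of this list with 0 peaks in the 4 lists. Among the netrin receptors, Dcc had 1 pSmad1/5 and 1 Smad4 peaks in limb, and 4 and 19 in molar, while Unc5b had 14, 11, 6 and 7. The neuropilin Nrp2, a co-receptor of Sema3f, had 1, 2, 16 and 7, and Nrp1 had 1, 1, 3 and 2. Flrt1 had 17, 25, 10 and 2 peaks, and Unc5a 9, 13, 14 and 5. At equal numbers, Dcc had 1, 1, 4 and 8 peaks, Nrp2 1, 2, 3 and 2, Unc5b 13, 11, 6 and 3, and Flrt1 15, 6, 10 and 2, so the tissue differences of Dcc, Nrp2 and Flrt1 in the full lists shrank in that setting.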

How the data were processed

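Per the labels, the authors used the transcription factor mode of BCP to call peaks, and they deposited 1 list per library. The submitters' processing notes name bcl2fastq, Bowtie2, SAMtools, bedtools, deepTools and mm10. For the use of the inputs as controls and for filters, nothing is given in the sources used here. A deposited line holds, per the labels, where a peak lies and how long it is, its summit, the authors' own enrichment score and their caller's p-value. The score served to rank and filter peaks, the p-value was not used in any test, and read depth is unknown. The signal of the input samples was not analysed here.

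Peaks were assigned to genes by summit with Python 3.11.15, pandas 2.3.3, numpy 2.4.6 and scipy 1.17.1, and the counting was tested on simulated data, in which 200 of 200 placed peaks were recovered in each list. Genes were placed by RefSeq's table for GRCm38.p6, with the coordinates of mm10, and promoters and strands came from its promoter table, which matched 51 of the 59 genes. Plxna1, Plxna4, Sema3b, Sema6a, Efnb3, Ntn1, Sema3f and Slit1 had no match. For these genes distances are from either gene end.

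With 1 library per group no test was run. Shares carry Clopper-Pearson and densities exact Poisson 95% intervals. Named genes are those with an overlapping peak, at the 5 highest-scoring peaks of a list, with an end peak in at least 2 lists, among the 10 with most peaks or most peaks per Mb, with no peak in any list, or with at least 3 peaks in 1 tissue and 0 in the other, and others in the account of their family. The genes, lists and settings were chosen with earlier results of these data known. Alternatives were other distances, a minimum score, equal numbers of peaks per chromosome and other definitions of overlap.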

Additional observations from a re-analysis of the deposited data

How the results depend on the processing

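The 33 values compared were recomputed in 123 ways, of which 62 stayed within the margins set for a count or a density and 61 moved. No paired analysis was possible because each group had 1 library and the labels share no replicate numbers, and for the same reason no library could be left out. Read depth is unknown, so a missing peak cannot be told from too few reads. Except for the stricter settings, which hold fewer peaks by construction, the cause was not tested. Where 4 values follow each other, limb comes before molar, and within a tissue pSmad1/5 before Smad4.

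With peaks scoring at least 4, genes with a peak fell to 33 in limb pSmad1/5 and 28 in molar pSmad1/5. Densities fell to 4.11, 5.77, 2.70 and 4.36 per Mb, and genes with an end peak to 6, 11, 5 and 3. Overlapping peaks fell to 2 for both antibodies in limb and to 0 for both antibodies in molar, for both tissues with pSmad1/5, for both tissues with Smad4, and for molar pSmad1/5 with limb Smad4. Genes with a peak in 1 tissue alone came to 13 (pSmad1/5, limb), 15 (Smad4, limb) and 10 (Smad4, molar). Genes with a peak in all 4 lists fell to 4 semaphorins, 1 plexin, 2 ephrins, 4 Eph receptors, 0 Slits, 0 Robos and 1 netrin. The list of 42 other pathway genes fell to 21 (limb pSmad1/5), 25 (limb Smad4) and 20 (molar pSmad1/5).

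Within 10 kb, densities were 11.7 (limb pSmad1/5), 17.0 (limb Smad4) and 13.1 (molar Smad4), pSmad1/5 peaks in molar alone were at 11 genes, Smad4 peaks in limb alone at 18, and 2 ephrins had all 4 lists. With equal numbers per chromosome, densities were 16.3 (limb Smad4), 10.98 (molar pSmad1/5) and 11.1 (molar Smad4), and peaks in 1 tissue alone were at 1 (pSmad1/5, limb), 11 (Smad4, limb) and 7 (Smad4, molar) genes. Within 5 kb of a gene end, 28, 39, 40 and 20 genes had a peak. With summits within 200 bp in place of an overlap, the shared peaks were 33 (both antibodies in limb), 8 (both in molar), 12 (pSmad1/5 in both tissues), 4 (Smad4 in both tissues), 16 (molar pSmad1/5 with limb Smad4) and 2 (limb pSmad1/5 with molar Smad4). When the overlap had to cover 0.5 of the shorter peak, the first 5 of these were 11, 1, 1, 1 and 3.

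Further alternatives were chosen after seeing the data. With peaks scoring at least 3, the molar pSmad1/5 density was 11.2 per Mb and 4 genes had a pSmad1/5 peak in limb alone. With only peaks whose nearest gene was a guidance gene, the densities were 8.47, 12.8, 14.9 and 10.8 per Mb.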
